A study of Mus musculus with 6 samples.

Results

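The genes described here are 37 ribosome biogenesis and nucleolar genes of the mouse, taken by gene symbol from a table of 53465 genes; none of the symbols was chosen by a threshold on expression. They encode RNA polymerase I subunits, abundant nucleolar proteins, the proteins of the box C/D and box H/ACA small nucleolar ribonucleoproteins (snoRNPs), and factors of the precursors of the small and large ribosomal subunits. Their RNA was measured in long-term haematopoietic stem cells (LT-HSCs), sorted from bone marrow as lineage-negative, Sca-1+, c-Kit+, Flk2- and CD34- cells. The 3 carnosine libraries came from wild-type mice that received 5.0 Gy of total body irradiation and then carnosine, the natural dipeptide of beta-alanine with histidine. The 3 saline libraries came from wild-type mice that received the same 5.0 Gy and then saline. Every group was therefore irradiated. The labels used here give no age, sex, strain, carnosine dose or time of sampling, and do not say whether replicates came from separate mice. The p-values set the difference between groups against the spread of libraries within a group, and that spread may be technical.

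A ribosome begins in the nucleolus, where RNA polymerase I transcribes one long ribosomal RNA precursor. Small nucleolar RNAs (snoRNAs) and their proteins guide chemical modification and cutting of this RNA, and large protein assemblies then fold it into separate precursors of the small and large subunits. Haematopoietic stem cells are known for a low rate of protein synthesis compared with the progenitors they give rise to. The libraries were made from poly-A RNA, so the values below are messenger RNA of the protein factors; ribosomal RNA, nucleoli and protein synthesis were not measured.

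The libraries held 12730837 to 13651553 counts with carnosine and 12602067 to 16866534 counts with saline. Replicates of a group differed by 1.74 to 2.02 times the squared difference that counting noise alone gives, against 10.8 to 12.5 times between groups. Many marker genes of other blood cells also differed between the groups. For comparison, edgeR's test at an adjusted p under 0.05 called 19.6% of all tested genes higher with carnosine and 19.8% lower. Of 10 myeloid progenitor markers 9 were higher and 1 was lower, and their summed level was 10735 to 10981 CPM (a gene's count scaled to a common library size) with carnosine, against 6107 to 6140 CPM with saline. Most of that sum was Mpo (mean 5404 CPM with carnosine, 2757 CPM with saline) and Calr (mean 2645 CPM with carnosine, 2062 CPM with saline). Of 12 genes of dividing cells 11 were higher, with a sum of 2811 to 2838 CPM with carnosine and 2347 to 2352 CPM with saline. Of 7 megakaryocyte markers tested all 7 were lower, with a sum of 192 to 200 CPM with carnosine and 427 to 461 CPM with saline. Erythroid markers were 6 higher and 2 lower of 10, with a sum of 1703 to 1759 CPM with carnosine and 1488 to 1534 CPM with saline. B and plasma cell markers were 1 higher and 2 lower of 10 (774 to 1071 CPM with carnosine, 1163 to 1208 CPM with saline). T and NK cell markers were 5 higher and 2 lower of 7 tested (125 to 135 CPM with carnosine, 91.4 to 93.3 CPM with saline). Most of that sum was Nkg7 (mean 114 CPM with carnosine, 81.5 CPM with saline), and the 2 lower genes were Ncr1 and Klrb1c. Macrophage markers were 2 higher and 1 lower of 4 tested (81.0 to 84.8 CPM with carnosine, 109 to 119 CPM with saline). The lower one was Csf1r (mean 47.8 CPM with carnosine, 84.3 CPM with saline), also the 1 lower myeloid progenitor marker, while Cd68 and Vcam1 were higher. Of 9 stem cell markers tested 1 was higher and 5 were lower, and the summed level of that list overlapped between groups at 479 to 495 CPM with carnosine and 490 to 502 CPM with saline. Procr, which encodes the stem cell surface receptor EPCR, was low in both groups at 4.97 ± 0.418 CPM with carnosine and 5.66 ± 0.219 CPM with saline (SD, n = 3 each). No listed marker was at 0 in all libraries. The part of these marker differences in the results below was not tested, and a change in the share of a cell type cannot be told apart from a change in RNA per cell in such bulk samples.

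All 37 genes passed the filter on low counts, and their levels differed little between carnosine and saline. By edgeR's quasi-likelihood test at an adjusted p under 0.05, 10 genes were higher with carnosine, 3 were lower and 24 were not called. Across all 15533 genes tested, 39.4% were called, 19.6% higher and 19.8% lower, against 35.1% of the 37 genes. Among the 5405 genes at least as abundant as the lowest of the 37, 21.2% were called higher and 28.9% lower. The median log2 fold change of the 37 genes, carnosine over saline, was 0.040, against a median close to 0 for all tested genes. Single genes ranged from -0.27 for Polr1c to 0.32 for Wdr12, and the signs were mixed, with 21 positive and 16 negative values.

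The small size of the differences was the most uniform feature of the list. The median size of a log2 fold change was 0.096 in the 37 genes, 0.23 in all tested genes and 0.15 in the genes at least as abundant as the lowest of the 37. Of the 37 genes, 23 differed by less than 10% between groups, a size found in 35.2% of tested genes and 47.8% of the abundant ones. For 25 of the 37, the whole 95% confidence interval of the change lay within 20% of no change. Wdr12 alone was called with a rise of at least 25% or the equivalent fall, a size at which 25% of all tested genes were called.

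**Figure D1:**
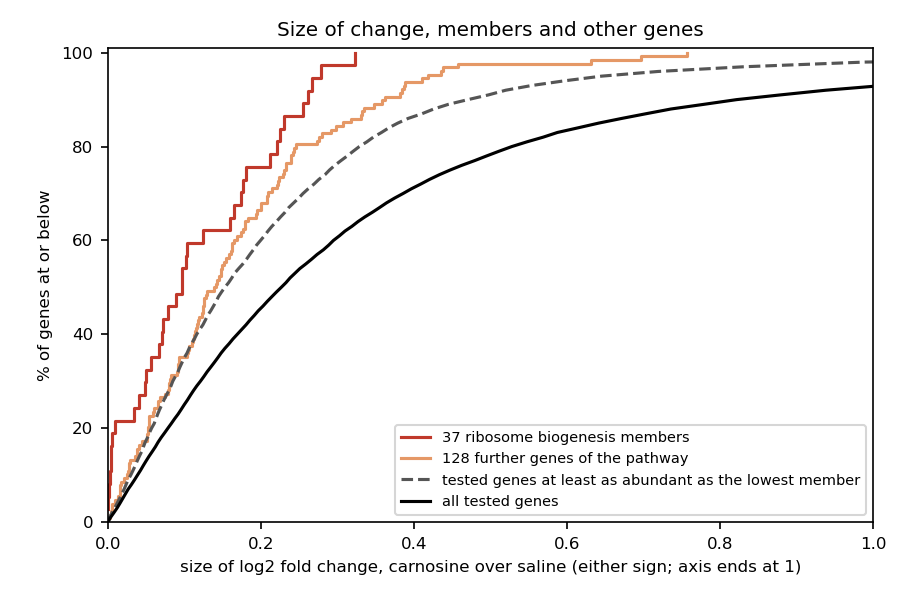
Cumulative share of genes (vertical axis, percent) by the size of the log2 fold change, carnosine over saline (horizontal axis, either sign), for the 37 genes, 128 further genes of the pathway, tested genes at least as abundant as the lowest of the 37, and all tested genes. The curve of the 37 genes lies furthest to the left, with a median size of 0.096 against 0.15 for the abundant genes and 0.23 for all tested genes.

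The summed level of the 37 genes was 9734 to 9831 CPM with carnosine and 9570 to 9891 CPM with saline after TMM scaling, and the groups overlapped. As a share of all deposited counts, without that scaling, the same genes made up at least 0.991% in each carnosine library and at most 0.966% in each saline library, and the groups did not overlap. The TMM factors that lie between these measures were 1.019 to 1.021 with carnosine and 0.979 to 0.982 with saline. With library totals in place of TMM, 30 of the 37 fold changes were positive, 15 genes were higher and 3 lower, and the median of all tested genes shifted by 0.057; the genes called higher made up 3900 and those called lower 2501 of all tested genes on that scale, against 3038 and 3077 with TMM. The number of positive fold changes thus moved with the scaling; the median of the list was positive under each scaling, and none of the 13 called genes changed direction.

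**Figure D2:**
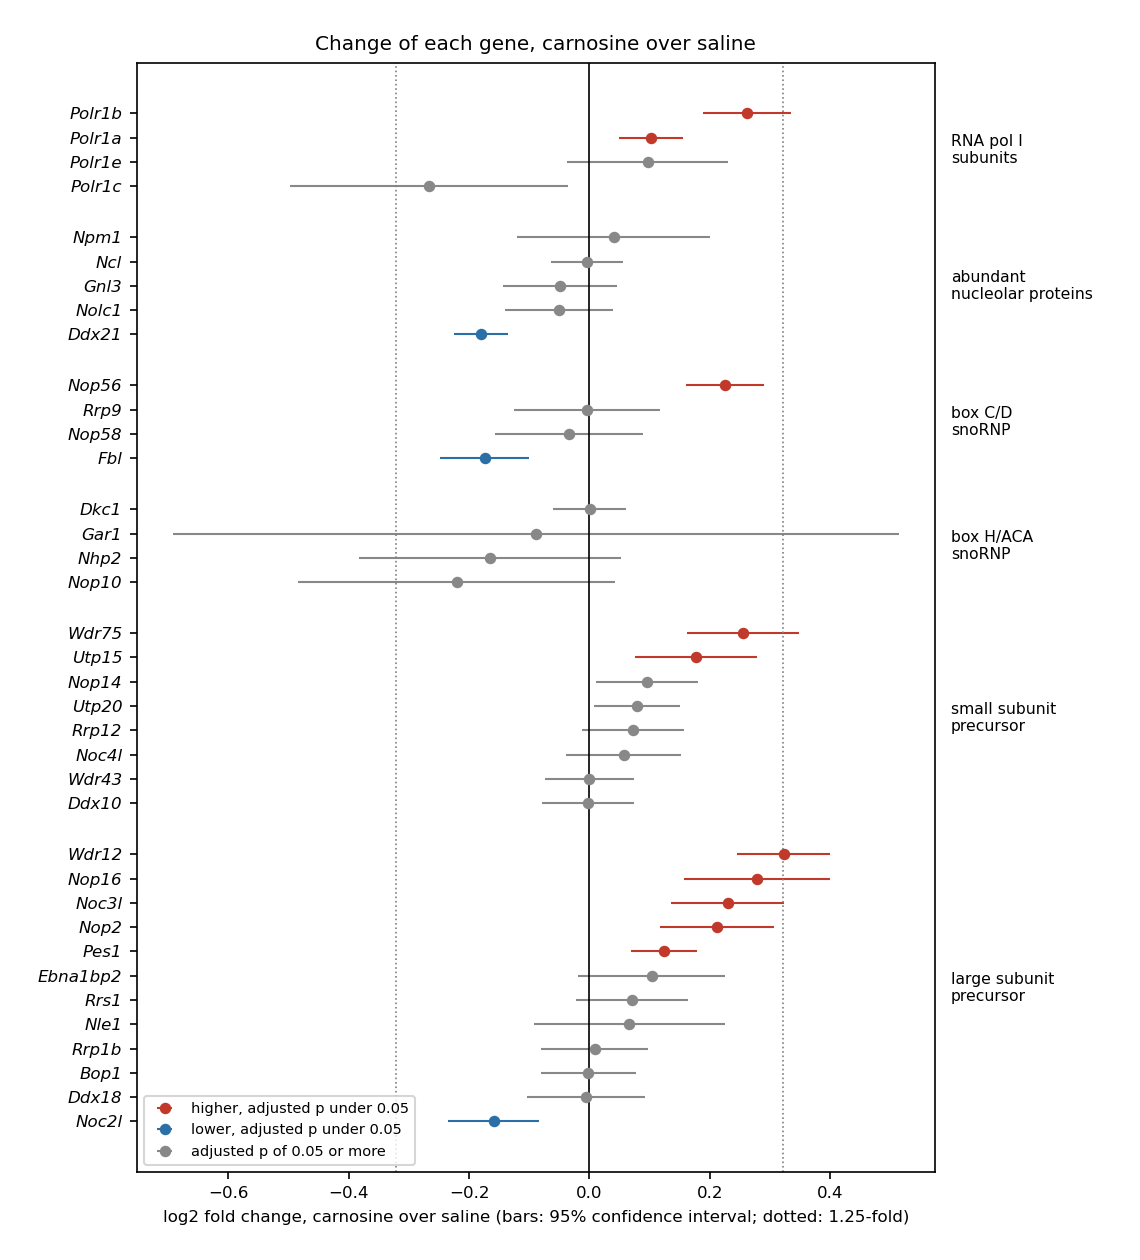
Log2 fold change of each of the 37 genes, carnosine over saline (horizontal axis), with 95% confidence intervals as bars, grouped by role; red and blue mark genes higher and lower at an adjusted p under 0.05, and dotted lines mark a rise of 25% and the equivalent fall. The called genes lie on both sides of 0, with 10 higher and 3 lower, and all points lie between -0.27 and 0.32.

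RNA polymerase I transcribes the ribosomal RNA precursor. Of the 4 of its subunits listed here, both large catalytic ones were higher with carnosine and the other 2 were not called. The background was 19.6% of tested genes called higher. Polr1b, one of the catalytic subunits, had 129, 129 and 127 CPM in the carnosine libraries, against 108, 109 and 104 CPM in the saline libraries. The groups were well apart, with a change of 19.9% (95% confidence interval 14.0 to 26.1%; log2 fold change 0.26, SE 0.0309, adjusted p = 0.0006 by edgeR). The gene lies on chromosome 2 at 129100995 to 129126594 of GRCm38. Polr1a, the largest subunit, on chromosome 6 at 71909053 to 71984935, had 217, 216 and 216 CPM with carnosine and 201, 200.3 and 203 CPM with saline. All carnosine libraries lay above all saline libraries and the SD within each group was under 2 CPM, but the change was only 7.32% (log2 fold change 0.10, SE 0.0227, adjusted p = 0.011), and it was not called by DESeq2 (adjusted p = 0.11).

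Polr1c, a subunit shared with RNA polymerase III, pointed the other way. It had 63.7, 48.2 and 53.4 CPM with carnosine and 69.0, 65.8 and 64.1 CPM with saline. All carnosine libraries were below all saline libraries, yet carnosine replicate 1 lay close to them, and the difference was not called (log2 fold change -0.27, SE 0.0983, adjusted p = 0.068). Without carnosine replicate 1 it was called at a log2 fold change of -0.38 (adjusted p = 0.0076). Polr1e, which encodes the subunit known as PAF53, averaged 44.5 ± 2.65 CPM with carnosine and 41.7 ± 0.419 CPM with saline (adjusted p = 0.22).

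**Figure D3:**
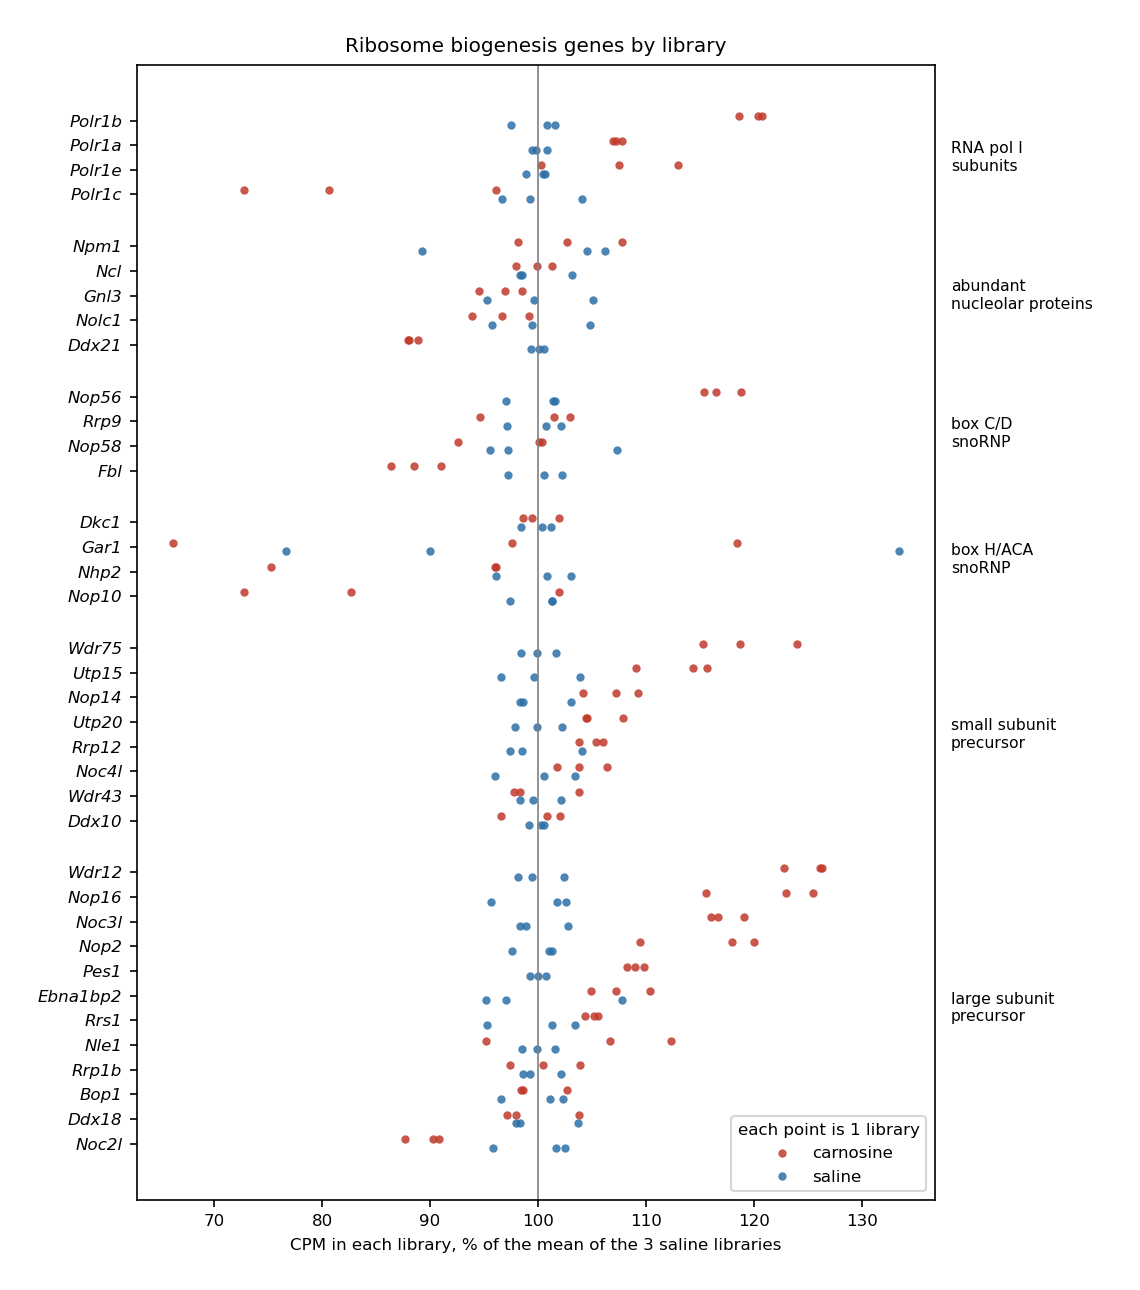
CPM of each of the 37 genes in each of the 6 libraries, as a percent of the mean of the 3 saline libraries (horizontal axis), with carnosine points drawn above saline points and genes grouped by role. Carnosine points lie clear to the right of the saline points for Wdr12, Polr1b and Wdr75 and clear to the left for Ddx21 and Fbl, they are mixed with them for Ncl and Npm1, and Gar1 has the widest spread in both groups.

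Among the abundant nucleolar proteins, 1 of 5 was lower and 4 were not called, while 19.8% of all tested genes were called lower. Ncl encodes nucleolin, an RNA-binding protein of the nucleolus, and had 2713, 2622 and 2675 CPM with carnosine, against 2638, 2633 and 2762 CPM with saline. The groups overlapped fully, and the interval of the change ran from -4.38 to 3.99% (log2 fold change -0.0041, adjusted p = 0.92). Npm1 encodes nucleophosmin, a nucleolar chaperone of proteins and ribosomal precursors, and had 1307, 1368 and 1435 CPM with carnosine, against 1415, 1189 and 1392 CPM with saline. These groups overlapped as well, with a wider interval of -7.96 to 14.9% (adjusted p = 0.68). Nolc1, a chaperone of snoRNPs also called Nopp140, averaged 365 ± 9.91 CPM with carnosine and 378 ± 17.2 CPM with saline (adjusted p = 0.34). Gnl3, the GTPase nucleostemin, averaged 199 ± 4.19 CPM with carnosine and 205 ± 10.1 CPM with saline (adjusted p = 0.38).

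Ddx21, an RNA helicase that acts in ribosomal RNA transcription and processing, was the lower gene of that group. It had 611, 617 and 611 CPM with carnosine and 690.1, 699 and 695 CPM with saline. Every carnosine library was below every saline library by more than 70 CPM, while replicates stayed within 10 CPM of each other. The change was -11.7% (interval -14.4 to -8.93%; log2 fold change -0.18, SE 0.0191, adjusted p = 0.00037). The gene lies on chromosome 10 at 62580251 to 62602281.

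The box C/D snoRNPs add methyl groups to ribose in ribosomal RNA, and their core proteins did not move together. Fbl encodes fibrillarin, the methyltransferase of the particle, and had 217, 229 and 222 CPM with carnosine, against 244, 253 and 257 CPM with saline. It was lower in every carnosine library, with a change of -11.4% (interval -15.8 to -6.70%; log2 fold change -0.17, SE 0.0314, adjusted p = 0.0043). Nop56, a scaffold protein of the same particle on chromosome 2 at 130274430 to 130279313, had 340.0, 333 and 330.2 CPM with carnosine and 291, 278 and 290.3 CPM with saline. It was higher in every carnosine library, by 16.9% (interval 11.7 to 22.2%; log2 fold change 0.22, SE 0.0276, adjusted p = 0.00072). Nop58, the partner scaffold protein, averaged 282 ± 12.8 CPM with carnosine and 289 ± 18.3 CPM with saline (adjusted p = 0.65). Rrp9, a protein of the U3 particle, averaged 52.4 ± 2.34 CPM with carnosine and 52.6 ± 1.34 CPM with saline (adjusted p = 0.96).

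Nop56 and Nop58 also carry box C/D snoRNAs in their introns, so that 1 transcript gives both a protein of the particle and guide RNAs that the particle binds. One from each gene is shown, 5′ to 3′ and read from the GENCODE M21 transcripts of GRCm38, with the C box (ATGATGA) and the D box (CTGA), the elements the core proteins recognise, in capitals. Snord110 lies in Nop56 at chr2:130275506-130275573 on the plus strand, and Snord11 lies in Nop58 at chr1:59704790-59704873 on the plus strand.
Snord110: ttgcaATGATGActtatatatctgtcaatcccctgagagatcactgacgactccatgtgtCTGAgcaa
Snord11: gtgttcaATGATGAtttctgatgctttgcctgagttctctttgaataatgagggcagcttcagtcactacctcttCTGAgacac
In all, 19 annotated snoRNA genes lie inside 6 of the 37 genes, namely 5 in Nop56, 4 in Nop58, 3 each in Ncl, Gnl3 and Wdr43, and 1 in Dkc1. The most that any of them reached was 370 counts summed over the 6 libraries, and Snord110 and Snord11 had 41 and 9, so poly-A libraries of this kind give no measure of the snoRNAs themselves.

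The box H/ACA snoRNPs convert uridine to pseudouridine in ribosomal RNA. None of their 4 core proteins was called, against 39.4% of all tested genes. Dkc1, the pseudouridine synthase dyskerin, averaged 235 ± 4.06 CPM with carnosine and 235 ± 3.31 CPM with saline, and the interval of its change was -4.08 to 4.27%. Nhp2 had 132, 132 and 104 CPM with carnosine and 132, 142 and 139 CPM with saline, so that only carnosine replicate 3 stood apart (adjusted p = 0.20). Nop10 had 80.5, 57.5 and 65.3 CPM with carnosine and 80.1, 77.0 and 80.0 CPM with saline. Carnosine replicates 2 and 3 were below all saline libraries and carnosine replicate 1 was not, and Nop10 was called lower only without that library (log2 fold change -0.36, adjusted p = 0.0087, against -0.22 and 0.16 with all libraries).

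Gar1, the fourth core protein of the particle, was the most variable of the 37 genes between replicates. It had 82.5, 68.0 and 46.1 CPM with carnosine and 62.7, 92.9 and 53.4 CPM with saline. The highest library was 1.79 times the lowest within the carnosine group and 1.74 times within the saline group. Its variation within groups stood at percentile 98.7 of tested genes with at least 500 counts, and the interval of its change, -38.1 to 42.7%, leaves its direction undetermined. At the other end, Polr1a, Ddx21 and Pes1 stood below percentile 1 in the same ranking.

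The small subunit precursor is assembled by a large particle that includes the U3 snoRNP. Of its 8 genes listed here, 2 were higher and none lower, against 19.6% and 19.8% of all tested genes, and 6 were not called by edgeR. Wdr75, a member of the early-binding subcomplex of this particle, on chromosome 1 at 45795166 to 45823619, had 105, 100.3 and 97.5 CPM with carnosine and 84.5, 85.9 and 83.2 CPM with saline. Its groups were separate by more than 10 CPM, and the change was 19.3% (interval 11.9 to 27.3%; log2 fold change 0.25, SE 0.0397, adjusted p = 0.0022). Utp15, from the same subcomplex, had 96.7, 92.3 and 97.9 CPM with carnosine and 84.2, 81.7 and 87.9 CPM with saline. All carnosine libraries were above all saline libraries (log2 fold change 0.18, SE 0.0433, adjusted p = 0.016), and the call was lost without carnosine replicate 1 (adjusted p = 0.051). Wdr43, a further member of that subcomplex and the most abundant gene of this group per length of transcript, had 287, 271 and 272 CPM with carnosine and 272, 276 and 283 CPM with saline, which overlap (adjusted p = 1.0).

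The groups of libraries were also separate for 2 genes of the small subunit particle that missed the threshold. Nop14 had 115, 112 and 109 CPM with carnosine and 103, 108 and 103 CPM with saline (adjusted p = 0.072). Utp20 had 151, 151 and 156 CPM with carnosine and 148, 142 and 145 CPM with saline (adjusted p = 0.079). In both, every carnosine library was above every saline library, by a narrow margin in Nop14. Noc4l, Rrp12 and the helicase Ddx10 had adjusted p-values of 0.31, 0.16 and 0.95, with log2 fold changes of 0.057, 0.072 and -0.0030.

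Of 12 factors of the large subunit precursor, 5 were higher and 1 was lower, against 19.6% and 19.8% of all tested genes. Pes1, Bop1 and Wdr12 form a complex (PeBoW) that is needed to process the ribosomal RNA of the large subunit, and Wdr12 and Pes1 were called higher while Bop1 was not called; the differences between these genes were not tested. Wdr12, on chromosome 1 at 60069785 to 60098645, had 122, 122 and 119 CPM with carnosine and 95, 99.1 and 96.3 CPM with saline. Its groups were more than 19 CPM apart, and its change of 25.1% was the largest rise of the 37 genes (interval 18.5 to 32.0%; log2 fold change 0.32, SE 0.0329, adjusted p = 0.0003). Pes1 had 205, 203 and 202 CPM with carnosine and 188, 186 and 185 CPM with saline. These groups were separate too, with SDs of 1.49 CPM with carnosine and 1.35 CPM with saline, and the change was 8.99% (interval 4.90 to 13.2%; log2 fold change 0.12, SE 0.0235, adjusted p = 0.0053). Bop1 averaged 161 ± 3.88 CPM with carnosine and 162 ± 4.92 CPM with saline, with an interval of -5.48 to 5.55%, which overlaps that of Pes1 and lies below that of Wdr12.

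Noc3l, a factor of early large subunit precursors, had 74.6, 76.6 and 75.1 CPM with carnosine and 66.1, 63.3 and 63.6 CPM with saline, which are separate groups (change 17.2%, log2 fold change 0.23, SE 0.0402, adjusted p = 0.0038). Nop16, a nucleolar protein of the same precursors, had 66.1, 71.8 and 70.4 CPM with carnosine and 58.2, 58.7 and 54.7 CPM with saline. It was higher in every carnosine library, by 21.3% (log2 fold change 0.28, SE 0.0517, adjusted p = 0.0049). Nop2, which methylates a cytosine of large subunit RNA, averaged 177 ± 8.56 CPM with carnosine and 153 ± 3.16 CPM with saline (change 15.8%, log2 fold change 0.21, SE 0.0405, adjusted p = 0.0056). Its 3 carnosine libraries, the lowest at 168 CPM, were all above the saline libraries, the highest of which was at 155 CPM.

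Noc2l, the partner of Noc3l in yeast and in mammals also known as an inhibitor of histone acetyltransferases, was the only lower gene of the large subunit group. It had 381, 379 and 368 CPM with carnosine and 427, 429.9 and 402 CPM with saline. Every carnosine library was below every saline library, and the change was -10.4% (interval -15.0 to -5.62%; log2 fold change -0.16, SE 0.0321, adjusted p = 0.0071). The gene lies on chromosome 4 at 156236010 to 156247616, and on the authors' deposited FPKM values its difference was not called (adjusted p = 0.060). The other 5 genes of the group were Ddx18, Rrs1, Rrp1b, Nle1 and Ebna1bp2, with log2 fold changes of -0.0055 to 0.10 and adjusted p-values of 0.16 to 0.93. Of these, Rrs1 had separate groups, with 106, 107 and 108 CPM with carnosine against 105, 97.1 and 103 CPM with saline (adjusted p = 0.20). Ebna1bp2 was called without saline replicate 1 (log2 fold change 0.16, adjusted p = 0.022) and with library totals in place of TMM (log2 fold change 0.16).

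Over the whole list, carnosine libraries lay above saline libraries without overlap for 13 genes, below them for 4, and overlapped with them for 20. Across all tested genes, 52.3% had groups that did not overlap: 26.2% had all carnosine libraries above and 26.1% had all of them below.

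**Figure D4:**
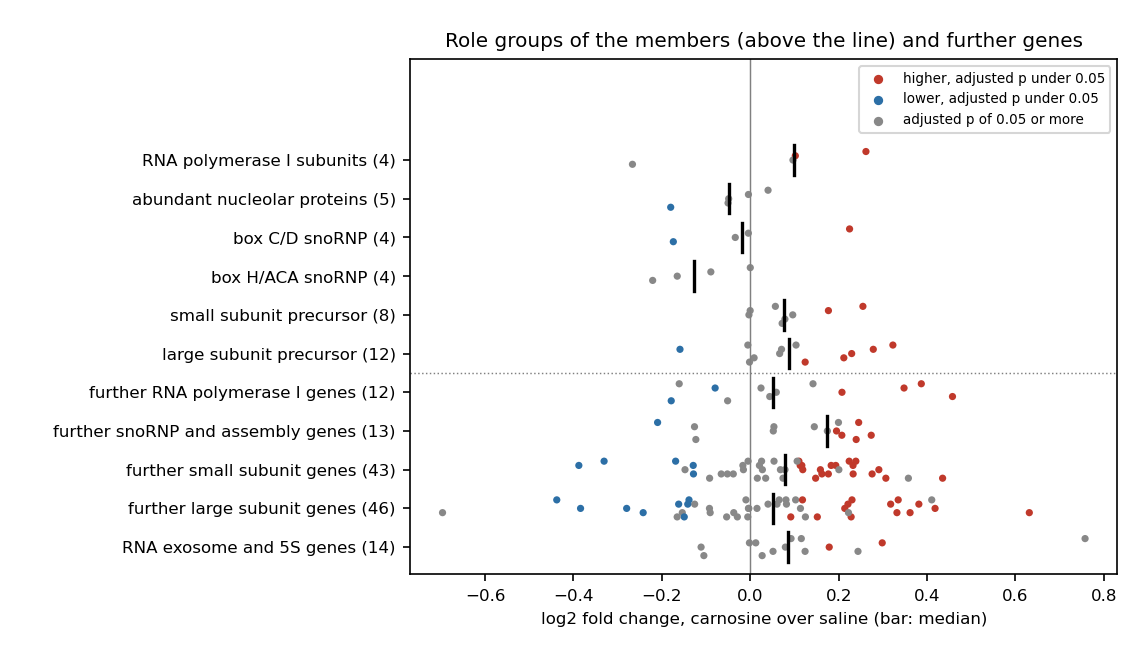
Log2 fold change, carnosine over saline (horizontal axis), of each gene in the 6 role groups of the 37 genes, above the dotted line, and in the 5 lists of further genes of the pathway, below it; points are genes, colours mark genes called higher or lower, and vertical bars are medians. Medians lie between -0.127 for the box H/ACA proteins and 0.174 for further snoRNP genes, and every list holds genes on both sides of 0.

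The genes differed more from one another in level than between treatments. Levels between genes are given as CPM per kilobase of merged exons in GENCODE M21, which include exons of minor isoforms. Npm1 stood highest at 514 ± 24.1 CPM per kb with carnosine and 499.8 ± 46.6 CPM per kb with saline, followed by Ncl at 262 ± 4.46 CPM per kb with carnosine and 263 ± 7.16 CPM per kb with saline. The next in order were Noc2l at 131 ± 2.40 CPM per kb with carnosine and 146 ± 5.34 CPM per kb with saline, and Ddx21 at 118 ± 0.691 CPM per kb with carnosine and 134 ± 0.840 CPM per kb with saline. Each of these steps was larger than the SDs of its neighbours, whereas further down the saline levels of neighbours such as Utp15 at 14.5 ± 0.535 and Utp20 at 14.2 ± 0.31 CPM per kb lay within their SDs. Wdr12 was lowest at 10.1 ± 0.158 CPM per kb with carnosine and 8.10 ± 0.178 CPM per kb with saline. That rank depends on its merged exon length of 11.955 kb. Without division by length, Wdr12 averaged 121 CPM with carnosine and 96.8 CPM with saline, and was not the lowest of the list. By mean CPM the median of the 37 genes was 123, against 22.1 for all tested genes, while median exon GC content was 50.3% and 49.4% and median merged exon length 3.90 and 3.72 kb.

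**Figure D5:**
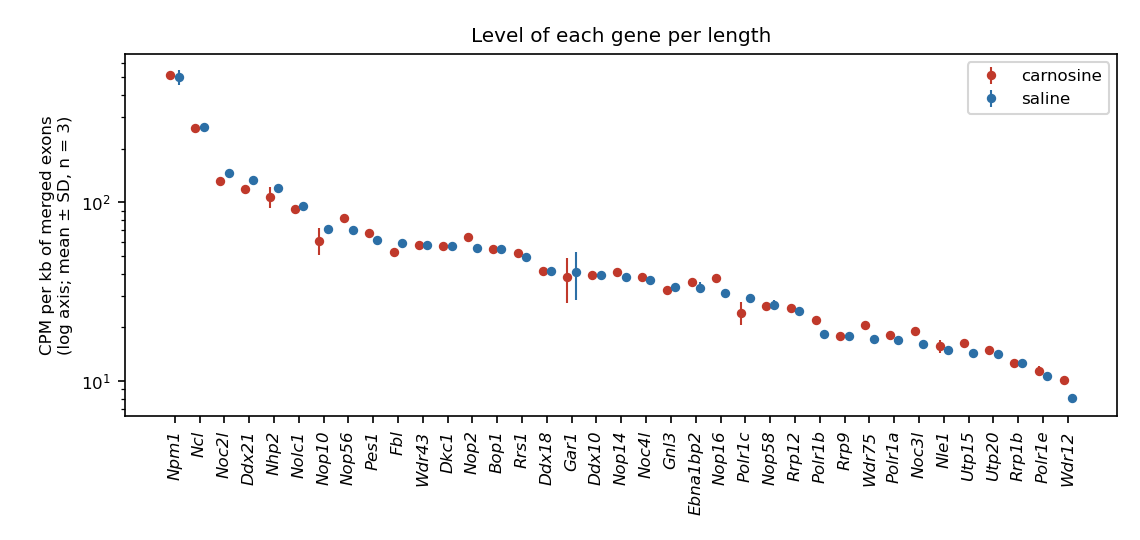
Level of each of the 37 genes in CPM per kilobase of merged exons (vertical axis, log scale), with carnosine to the left of saline for each gene; points are means of 3 libraries and bars are SD. Levels run from Npm1 at 514 with carnosine and 499.8 with saline down to Wdr12 at 10.1 with carnosine and 8.10 with saline.

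Several of the genes share their locus with a gene on the other strand. The libraries were stranded, but the sources used here do not say whether strand was used in counting. The counts of such genes may therefore include reads of the opposite gene. Exons overlapped with an opposite gene that held at least 5% of the gene's counts for 7 of the 37: Gnl3 with Pbrm1 (98.4%), Nop56 with Idh3b (44.9%), Rrp9 with Parp3 (36.4%), Dkc1 with Mpp1 (30.5%), Bop1 with Mroh1 (28.3%), Nhp2 with Rmnd5b (25.1%) and Wdr12 with Carf (6.99%). The percentages are the counts of the other gene over those of the listed gene. Without these 7 genes, 8 of 30 were higher and 3 lower, with a median log2 fold change of 0.062.

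Promoter sequence, which the choice of genes did not use, was available for 32 of the 37 genes from RefSeq on GRCm38.p6, as 250 bases before to 50 after the start; Npm1, Fbl, Rrp12, Bop1 and Rrs1 were not among them. The letters CACGTG, the E-box that MYC and related factors bind, were found in 5 of the 32 (15.6%), against 10.3% of 10143 promoters of tested genes and 7.24% of 27025 promoters in all. The letters CCGGAAG on either strand, an ETS-type motif, were found in 10 of the 32 (31.2%), against 18.6% of promoters of tested genes and 9.12% of all. The letters of the motifs cannot overlap each other, and CACGTG reads the same on both strands. Of the 10 genes called higher, 2 held CACGTG and 2 held CCGGAAG, and of the 20 genes with a promoter that were not called, 3 held CACGTG and 7 held CCGGAAG. The stretches of those 2 higher genes, Pes1 and Nop2, are shown 5′ to 3′ with CACGTG in capitals; that of Nop2 also holds ccggaag. The Pes1 stretch is chr11:3963950-3963982 and the Nop2 stretch is chr6:125131796-125131855, both on the plus strand.
Pes1: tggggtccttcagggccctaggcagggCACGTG
Nop2: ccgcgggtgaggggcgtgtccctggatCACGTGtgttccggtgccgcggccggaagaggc
A match of letters describes the sequence and does not show that a factor binds there.

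The same pathway has other genes, and 128 of them were examined beside the 37. Of these, 43 were higher and 16 lower with carnosine, with a median log2 fold change of 0.076, against the background of 19.6% higher and 19.8% lower. Among 12 further RNA polymerase I genes, 4 were higher and 2 lower. Ttf1, which ends transcription of the ribosomal RNA genes, averaged 36.7 ± 0.784 CPM with carnosine and 28.0 ± 1.30 CPM with saline (log2 fold change 0.39, adjusted p = 0.0017). Taf1c and Taf1a, subunits of the selectivity factor that brings RNA polymerase I to its promoter, were higher with log2 fold changes of 0.46 and 0.35, while Taf1d of the same factor (-0.18) and the topoisomerase Top1 (-0.079) were lower.

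Among 13 further snoRNP and assembly genes, 5 were higher and 1 lower, against 19.6% and 19.8% of all tested genes. The higher ones were led by Nop9, Ruvbl2 and Rpap3 with log2 fold changes of 0.24, 0.21 and 0.24, though Nop9 is not a snoRNP protein. The lower one was Snu13, which binds the snoRNA in the box C/D particle, at 104 ± 2.24 CPM with carnosine and 120.2 ± 3.62 CPM with saline (log2 fold change -0.21, adjusted p = 0.0035). Among 43 further small subunit genes, 18 were higher (41.9%) and 5 lower (11.6%). Utp6, Dhx37 and Nat10, the RNA acetyltransferase of the particle, rose with log2 fold changes of 0.29, 0.24 and 0.22. The kinase Riok1 and the endonuclease Nob1, which act late on the small subunit precursor, fell with log2 fold changes of -0.33 and -0.39, as did Utp18 with -0.17.

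Among 46 further large subunit genes, 14 were higher (30.4%) and 8 lower (17.4%), against 19.6% and 19.8% of all tested genes. The ATPase Nvl averaged 123 ± 4.66 CPM with carnosine and 94.7 ± 1.73 CPM with saline (log2 fold change 0.38, adjusted p = 0.00028), and Nol9 and Urb2 rose with log2 fold changes of 0.36 and 0.33. Nop53, which recruits the RNA exosome to large subunit precursors, averaged 294 ± 8.42 CPM with carnosine and 398 ± 10.5 CPM with saline (log2 fold change -0.44, adjusted p = 5.6e-05), and Ddx54 and Rsl1d1 fell with log2 fold changes of -0.24 and -0.15. Of 14 genes of the RNA exosome and of related ribosomal RNA processing and transcription, the exosome subunits Exosc7 and Exosc8 were higher (0.30 and 0.18) and none was lower by edgeR. The share called higher in this list, 14.3%, was below the 19.6% of all tested genes.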

How the data were processed

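Stranded paired-end libraries were made from poly-A RNA of the sorted cells, per the labels' protocols. Per the submitters' processing notes, the tools were CASAVA 1.8, HISAT2, StringTie and edgeR and the build was GRCm38, without a role for each. The deposited table holds unnormalized whole-number counts and FPKM values for each library, per the file headers. In the deposited FPKM values, the gene length equals the summed length of all distinct exons, with overlapping exons counted repeatedly, for 89.4% of genes (mean count of at least 100, within 1%). FPKM therefore understates genes with many isoforms and was used only in an alternative and to find the most abundant gene of each role group.

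Counts were tested with edgeR 4.0.16 (R 4.3.3): filterByExpr kept 15533 genes with 99.8% of counts, TMM scaled the libraries, and a quasi-likelihood F-test compared carnosine with saline, with Benjamini-Hochberg adjustment over all genes tested at 0.05. CPM values are on the TMM scale and errors are SD of 3 libraries. Alternatives used limma 3.58.1 and DESeq2 1.42.0. The tests were tried on simulated counts. The genes, lists and tests were chosen with earlier results of these data known. Values per library are given for genes that were called or whose groups do not overlap, at most 4 per role group by p-value, and for the most abundant gene of each role group (Ncl, Gar1, Nop10 and Rrs1 were added after their values were seen); further lists give up to 3 genes per direction by p-value. Riok2 was not analysed here, and protein sequences were not used here. With 3 libraries against 3, an exact permutation test of a single value cannot go below 0.1 and was not used.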

Additional observations from a re-analysis of the deposited data

How the results depend on the processing

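The 13 called genes kept their direction in all 17 alternatives, and 10 of them kept their call; the exceptions were Polr1a under DESeq2, Utp15 without carnosine replicate 1 and Noc2l on FPKM. Of the 24 other genes, 13 changed sign somewhere, all with a log2 fold change of at most 0.089 in size, and 7 were called somewhere. The cause was not tested. Leaving out 1 library gave 9 to 11 higher and 3 to 5 lower genes (5 without carnosine replicate 1, adding Polr1c and Nop10) and a median log2 fold change of 0.015 (without carnosine replicate 3) to 0.071 (without saline replicate 3). That median was 0.10 on log2(FPKM + 1) and 0.10 on log2(FPKM + 0.1), 0.063 with a correction for GC content and length, and, in alternatives chosen after seeing the data, 0.097 with library totals and 0.062 without genes overlapped on the opposite strand. On log2(FPKM + 1), 14 of the 37 genes were higher and 2 lower, 9 further pathway genes were lower (9 on log2(FPKM + 0.1)), and 3387 genes were higher and 2156 lower in all. DESeq2 called 26 further genes higher. Requiring a rise of at least 25%, or the equivalent fall, in edgeR left 1935 higher and 1948 lower genes, 1 and 0 of the 37, and 10 and 4 of the further ones. With the replicate number as a block, 2552 genes were higher and 2679 lower, with 10 and 4 of the 37, Polr1c being added. Deviations of same-numbered libraries from their group means were not correlated (r -0.014 to 0.018). Such deviations are partly counting noise, so this does not show whether the numbers mark a pairing.

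Signs turned as follows on the log2 scale, given for log2(FPKM + 1), log2(FPKM + 0.1) and library totals in that order. The deposited FPKM values are themselves scaled by library totals without TMM. These alternatives therefore share a scaling and are not independent of each other. Ncl was at 0.053, 0.053 and 0.053, Nolc1 at 0.0070, 0.0072 and 0.0069, Gnl3 at 0.0087, 0.0091 and 0.0082, and Nop58 at 0.023, 0.024 and 0.023. Rrp9 was at 0.048, 0.051 and 0.053, Wdr43 at 0.056, 0.056 and 0.057, Ddx10 at 0.053, 0.054 and 0.054, Bop1 at 0.055, 0.056 and 0.055, and Ddx18 at 0.050, 0.051 and 0.052. With the GC correction, Ncl was at 0.0087, Npm1 at -0.0036, Rrp9 at 0.093, Dkc1 at -0.063 and Bop1 at 0.079. With upper quartile scaling, Wdr43 was at 0.0038, Ddx10 at 0.0010 and Bop1 at 0.0024. Wdr43 was at 0.0014 with limma-voom, and Dkc1 at -0.0070 with no filter, -0.0076 with a filter of 5 CPM and -0.0011 with DESeq2. Leaving out 1 library gave -0.016 to 0.017 for Ncl, -0.035 to 0.087 for Npm1, -0.066 to 0.017 for Nop58, -0.028 to 0.032 for Rrp9, -0.014 to 0.011 for Dkc1, -0.29 to 0.17 for Gar1, -0.028 to 0.015 for Wdr43, -0.018 to 0.020 for Ddx10, -0.028 to 0.016 for Bop1, -0.036 to 0.021 for Ddx18 and -0.016 to 0.031 for Rrp1b.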

Other observations

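The length behind the deposited FPKM values changes the order of levels between genes of the list. In the authors' deposited FPKM values, Nop56 averaged 22.3 ± 0.353 FPKM with carnosine and 18.4 ± 0.446 FPKM with saline, well below Wdr43 at 81.7 ± 2.76 FPKM with carnosine and 78.5 ± 1.46 FPKM with saline (SD, n = 3 each). Per kilobase of merged exons the order of these genes was the reverse, with Nop56 at 81.6 ± 1.22 CPM per kb with carnosine and 69.8 ± 1.82 CPM per kb with saline, and Wdr43 at 58.0 ± 1.93 CPM per kb with carnosine and 58.0 ± 1.14 CPM per kb with saline. The length that the FPKM values imply for Nop56 is 15263 bases, against 4.10 kb of merged exons. For Wdr43 it is 3450 bases, shorter than the 4.775 kb of merged exons. The deposited locus of Wdr43 starts at 71616215 and that of GENCODE M21 at 71615895, so the merged length may not match what was counted. The order of Nop56 and Wdr43 therefore depends on the annotation used. Across tested genes the implied length was 1.32 times the merged exon length in the median. Differences between treatments within a gene are not touched by this, since the same length is used in every library.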
